A study of Xiphophorus maculatus with 32 samples.

Results

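Transcripts of 3 genes that stand at control points of insulin signalling, MAPK signalling and glycolysis were followed through every exposure of a light-response series in skin of *Xiphophorus maculatus*, a small live-bearing fish. They are IRS2 (ENSXMAT00000012579), MAP2K1 (ENSXMAT00000003526) and PKFB1 (ENSXMAT00000001311), chosen by identifier from the panel of light-responsive targets that the study names, out of 20218 transcripts in the count table. The names come from that panel. PKFB1 is its spelling, taken here as PFKFB1, and the table itself cannot check the names. Skin of mature male Jp 163 B fish, 10 to 11 months old and from an inbred line, was dissected for RNA-Seq, with 2 separate fish for each exposure. Fish were kept in the dark for 14 h, received the light, and were returned to the dark for 6 h before dissection.

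The exposures were 4100 K fluorescent light (FL, 35 kJ/m2), 6 wavebands of 50 nm (300–350 nm at 7.3 kJ/m2, 350–400 nm at 18.6, 400–450 nm at 21.6, 450–500 nm at 21.2, 500–550 nm at 17.4 and 550–600 nm at 13.8 kJ/m2) and 5 wavebands of 10 nm that divide the region from 500 to 550 nm. The paper's methods give each 10 nm waveband a dose close to that of 500–550 nm. Each exposure was compared with unexposed controls of its own experiment, 2 fish for the 50 nm wavebands and 2 other fish for the 10 nm wavebands. The 4 columns of FL controls repeat those of the 50 nm controls, so 28 of the 32 columns were distinct and the FL and 50 nm comparisons share their controls. The methods describe controls taken directly from the dark cycle without handling, and elsewhere controls treated like the exposed fish. Sham exposures were not used here, so light and handling cannot be told apart.

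The 28 libraries held 12835091 to 41221463 counts, with a median of 16067180. Levels are given as CPM, the count scaled to a common library size with TMM factors, and a transcript was called when its Benjamini-Hochberg adjusted p in edgeR's quasi-likelihood test was under 0.05 and its log2 fold change (exposed minus control) was at least 1 in size. Whole skin was sequenced, so fewer cells of a type and less RNA per cell cannot be told apart, and no transcript named in the table defines a skin cell type. How reads that map to several transcripts were assigned is not stated, so the values of near-identical copies, which are frequent in bony fishes, are uncertain. In 3 libraries many transcripts lay at least 2-fold from their own control mean: 4790 of 16872 in fish 1 after 510–520 nm (941 in fish 2), 3511 in fish 1 after 520–530 nm (907 in fish 2) and 3020 in fish 2 after FL (1008 in fish 1). The other exposed libraries had 859 to 2124.

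The roles of these genes are known from mammals. IRS2 is an adaptor that insulin and IGF receptors phosphorylate and that passes the signal to PI3-kinase. MAP2K1, also called MEK1, is the kinase between RAF and ERK in the growth factor cascade. PFKFB1 is an enzyme with a kinase and a phosphatase activity that sets the amount of fructose 2,6-bisphosphate, the metabolite that turns glycolysis up and gluconeogenesis down. The activity of each protein is controlled in part by phosphorylation, which RNA-Seq does not measure.

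Of the 36 comparisons of a transcript with its controls, 1 was called: PKFB1 was higher after 500–550 nm, where 4.69% of all transcripts were called. That share was 0.975%, 3.27%, 2.06% and 2.73% after the 4 shorter wavebands of 50 nm, by rising wavelength, 4.42% after 550–600 nm and 0% after FL. It was 0% after each 10 nm waveband too, except 0.00611% after 540–550 nm. The lack of a call after FL and the 10 nm wavebands is thus not particular to these 3 transcripts. The paper reports modulated genes in those exposures. IRS2 varied more between fish of the same group than nearly all transcripts, and its highest libraries were single fish. MAP2K1 was lower than both controls in both fish after each of the 5 wavebands of 10 nm, without a call. By waveband, 27.4% to 32.4% of all transcripts were lower in the same way, and the 5 wavebands share their controls. The level of MAP2K1 also differed between the controls of the 2 experiments. The plot of all libraries shows these levels.

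**Figure D1:**
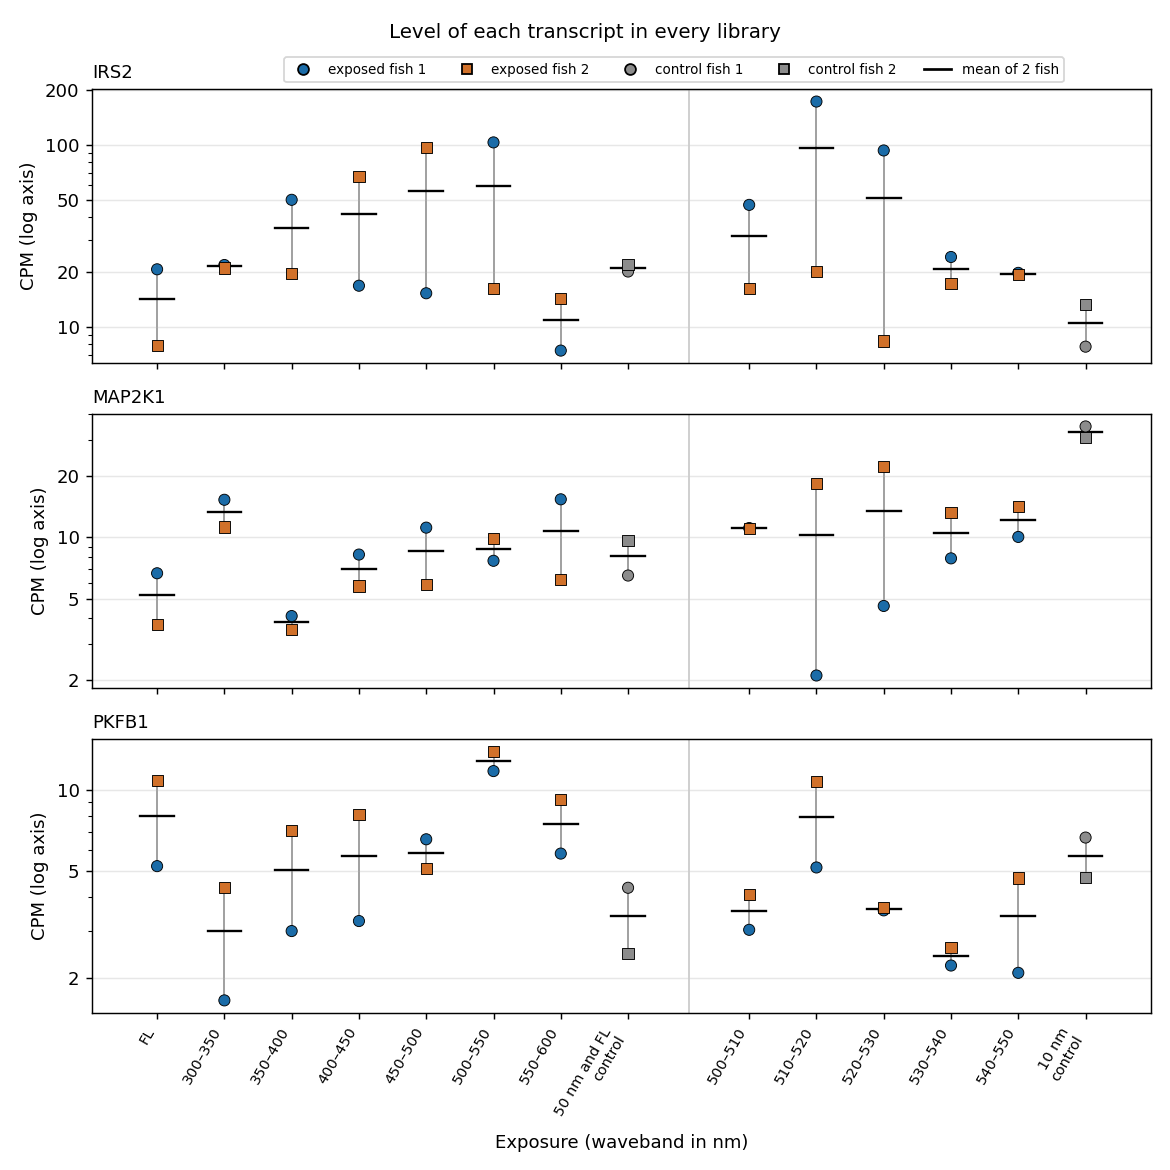
Level of IRS2, MAP2K1 and PKFB1 in each of the 28 libraries (CPM, log axis), with the exposures by wavelength and the controls of each experiment at the right of their exposures. Circles are fish 1, squares fish 2 and bars the mean of 2 fish. IRS2 reached 173 CPM in 1 fish after 510–520 nm, MAP2K1 was highest in the 10 nm controls (34.9 and 30.8 CPM), and PKFB1 was highest after 500–550 nm (11.8 and 13.9 CPM).

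The first question was whether the insulin adaptor IRS2 responded to any exposure. After FL it had 20.7 and 7.85 CPM, against 20.1 and 22.0 CPM in the controls shared with the 50 nm wavebands. The first FL fish lay between the controls and the second below both. The log2 fold change was −0.56 (SE 0.44, adjusted p = 0.517).

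After the shorter 50 nm wavebands, IRS2 had 21.8 and 21.0 CPM at 300–350 nm, 49.9 and 19.7 CPM at 350–400 nm, and 16.8 and 66.8 CPM at 400–450 nm, against 20.1 and 22.0 CPM in controls. After the longer ones it had 15.3 and 96.3 CPM at 450–500 nm, 103 and 16.3 CPM at 500–550 nm, and 7.39 and 14.3 CPM at 550–600 nm. From 350 to 550 nm 1 fish of each pair was above both controls and the other was below both. Only at 550–600 nm were both fish on the same side, below both controls, as were 30.6% of all transcripts. Log2 fold changes ran between −0.95 (SE 0.98, adjusted p = 0.548) at 550–600 nm and 1.48 (SE 0.97, adjusted p = 0.327) at 500–550 nm, and none was called. The paper lists IRS2 in the PI3K complex of the EGF pathway, which it reports as up-regulated after 450–500 nm. In that waveband the log2 fold change of IRS2 here was 1.39 (SE 0.97, adjusted p = 0.370), with 1 fish below both controls.

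The 10 nm wavebands gave the highest single value of IRS2. It had 46.8 and 16.2 CPM after 500–510 nm, 173 and 20.1 CPM after 510–520 nm, and 93.1 and 8.35 CPM after 520–530 nm, against 7.77 and 13.3 CPM in the 10 nm controls. After 530–540 nm it had 24.2 and 17.3 CPM and after 540–550 nm 19.8 and 19.3 CPM. Both fish exceeded both controls in 4 of the 5 wavebands, 520–530 nm being the exception. In those 4 wavebands 30.2%, 30.7%, 32.5% and 30.4% of all transcripts, by rising wavelength, also had both fish above both controls.

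The log2 fold change of IRS2 was 3.18 (SE 1.17, adjusted p = 0.129) after 510–520 nm, 2.24 (SE 1.13, adjusted p = 0.268) after 520–530 nm and 0.85 to 1.55 after the others. None was called. The fish with the highest levels, fish 1 after 510–520 nm and after 520–530 nm, are the libraries that stood apart from their controls over many transcripts, and the part of this in the IRS2 level was not tested. Without fish 2 of 510–520 nm the log2 fold change was 4.01 (adjusted p = 0.0213), in a fit that called 21.6% of all transcripts. That leaves 1 exposed fish, which is assumed to vary like the other groups.

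Over the 14 groups, IRS2 differed at least 2-fold between the 2 fish in 8, and by 11.2-fold at most (520–530 nm). The SD between fish of a group was 1.44 on the log2 scale in the 10 nm experiment, where the median transcript had 0.282 and 0.498% of transcripts had a higher SD. In the FL and 50 nm libraries it was 1.19, against a median of 0.245, and 0.848% of transcripts were higher. Among transcripts of similar mean level (within 0.5 on the log2 scale), 0.173% of 2886 were higher in the 10 nm experiment and 0.0346% of 2893 in the FL and 50 nm libraries. In the order of mean IRS2 levels, with 510–520 nm at the top (96.5 CPM) and the 10 nm controls at the bottom (10.5 CPM), all 13 pairs of neighbouring groups overlapped. How many of all transcripts show the same was not counted.

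**Figure D2:**
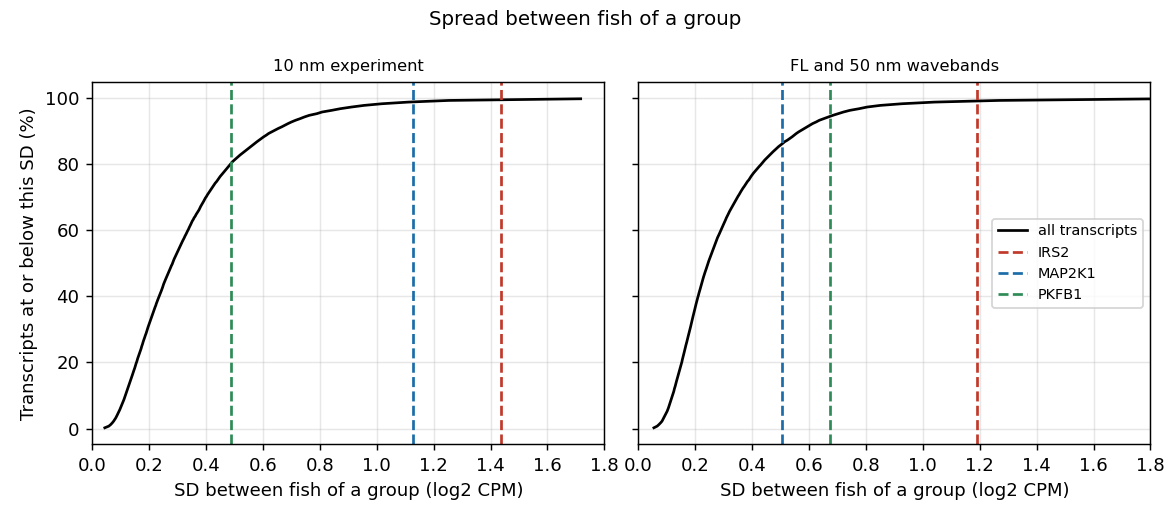
Share of all transcripts (%, vertical axis) whose SD between fish of a group is at or below the value on the horizontal axis (log2 CPM), in the 10 nm experiment and in the FL and 50 nm libraries. Dashed lines mark IRS2 (1.44 and 1.19), MAP2K1 (1.13 and 0.51) and PKFB1 (0.49 and 0.67), with IRS2 in the upper end of both curves.

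The second question concerned MAP2K1, the kinase upstream of ERK. After FL it had 6.66 and 3.73 CPM, against 6.49 and 9.67 CPM in controls, a log2 fold change of −0.63 (SE 0.37, adjusted p = 0.417). After 300–350 nm both fish were above both controls, at 15.3 and 11.2 CPM (0.69, SE 0.42, adjusted p = 0.382), an order that 28.9% of transcripts also showed. After 350–400 nm both fish were below, at 4.11 and 3.54 CPM, the lowest mean of the 14 groups. The log2 fold change there was −1.12 (SE 0.44, adjusted p = 0.127), and 30.4% of transcripts were below both controls in that waveband. It was called when this waveband was fitted with its controls alone (−1.09, adjusted p = 0.0482, with 4.8% of all transcripts) and by the exact test of edgeR (adjusted p = 0.00553, with 7.18%).

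The remaining 50 nm wavebands left MAP2K1 within or around the controls. It had 8.22 and 5.77 CPM after 400–450 nm, 11.1 and 5.90 CPM after 450–500 nm, 7.67 and 9.89 CPM after 500–550 nm and 15.3 and 6.21 CPM after 550–600 nm, against 6.49 and 9.67 CPM in controls. Log2 fold changes were between −0.25 and 0.37, none called. The direction at 300–350, 450–500, 500–550 and 550–600 nm turned round when all 4 controls of the series served as the reference.

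In the 10 nm experiment MAP2K1 was below both controls in every exposed fish. It had 11.1 and 11.1 CPM after 500–510 nm, 2.10 and 18.3 CPM after 510–520 nm, 4.61 and 22.3 CPM after 520–530 nm, 7.88 and 13.2 CPM after 530–540 nm and 10.0 and 14.1 CPM after 540–550 nm, against 34.9 and 30.8 CPM in the 10 nm controls. The highest exposed fish, at 22.3 CPM, was thus below the lower control. By rising wavelength, 31.1%, 28%, 27.4%, 32.4% and 28.5% of all transcripts were below both controls in the same way. The wavebands share these 2 controls, so the 5 results are not independent.

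Log2 fold changes of MAP2K1 were close together, between −1.71 (SE 0.84, adjusted p = 0.207) after 510–520 nm and −1.32 (SE 0.83, adjusted p = 0.362) after 520–530 nm, and none was called. When each waveband and its controls were fitted alone, MAP2K1 was called after 500–510 nm (−1.55, adjusted p = 0.00332), 530–540 nm (−1.63, adjusted p = 0.00582) and 540–550 nm (−1.45, adjusted p = 0.0197), the wavebands whose fish lay closest together. Those fits called 4.43%, 6.4% and 3.26% of all transcripts. The SD of MAP2K1 between fish was 1.13 in the 10 nm experiment, where 1.17% of transcripts had a higher SD, and 0.51 in the FL and 50 nm libraries, where 13.9% did.

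In a fit of all 28 libraries, the mean of the 10 nm wavebands was −1.53 (SE 0.47, adjusted p = 0.0409) relative to the 10 nm controls. This passed both thresholds, as 4.17% of transcripts did. It was no longer called without either 10 nm control (adjusted p = 0.217 without fish 1 and 0.234 without fish 2), without fish 1 or fish 2 of 500–510 nm (0.0616 and 0.0583), or without fish 1 of 530–540 nm or of 540–550 nm (0.0731 and 0.0701). Over the libraries left out in turn the value ran between −2.01 and −1.38.

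The controls themselves differed in MAP2K1. It had 34.9 and 30.8 CPM in the 10 nm controls and 6.49 and 9.67 CPM in the 50 nm controls, a log2 difference of 2.02 (SE 0.70, adjusted p = 0.0484). Of all transcripts, 9.13% differed between the controls by the same rule. The MAP2K1 difference was no longer called with size factors from the housekeeping transcripts (1.88, adjusted p = 0.0529), with the replicate number as a block (2.04, adjusted p = 0.0510), or without any 1 of the 4 controls (1.76 to 2.34, adjusted p between 0.121 and 0.222). The exposed fish of the 10 nm experiment, at 2.10 to 22.3 CPM, overlapped the 50 nm controls. In the order of mean MAP2K1 levels the 10 nm controls came first, and they were the only group that did not overlap the next. The order was set by these same values, and the share of all transcripts with such a gap was not counted. The experiment and anything that differed between its fish and those of the other experiment cannot be told apart.

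The controls were not called different in IRS2 or PKFB1. The log2 difference, 10 nm minus 50 nm, was −0.99 for IRS2 (SE 1.11, adjusted p = 0.560) and 0.74 for PKFB1 (SE 0.55, adjusted p = 0.357).

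**Figure D3:**
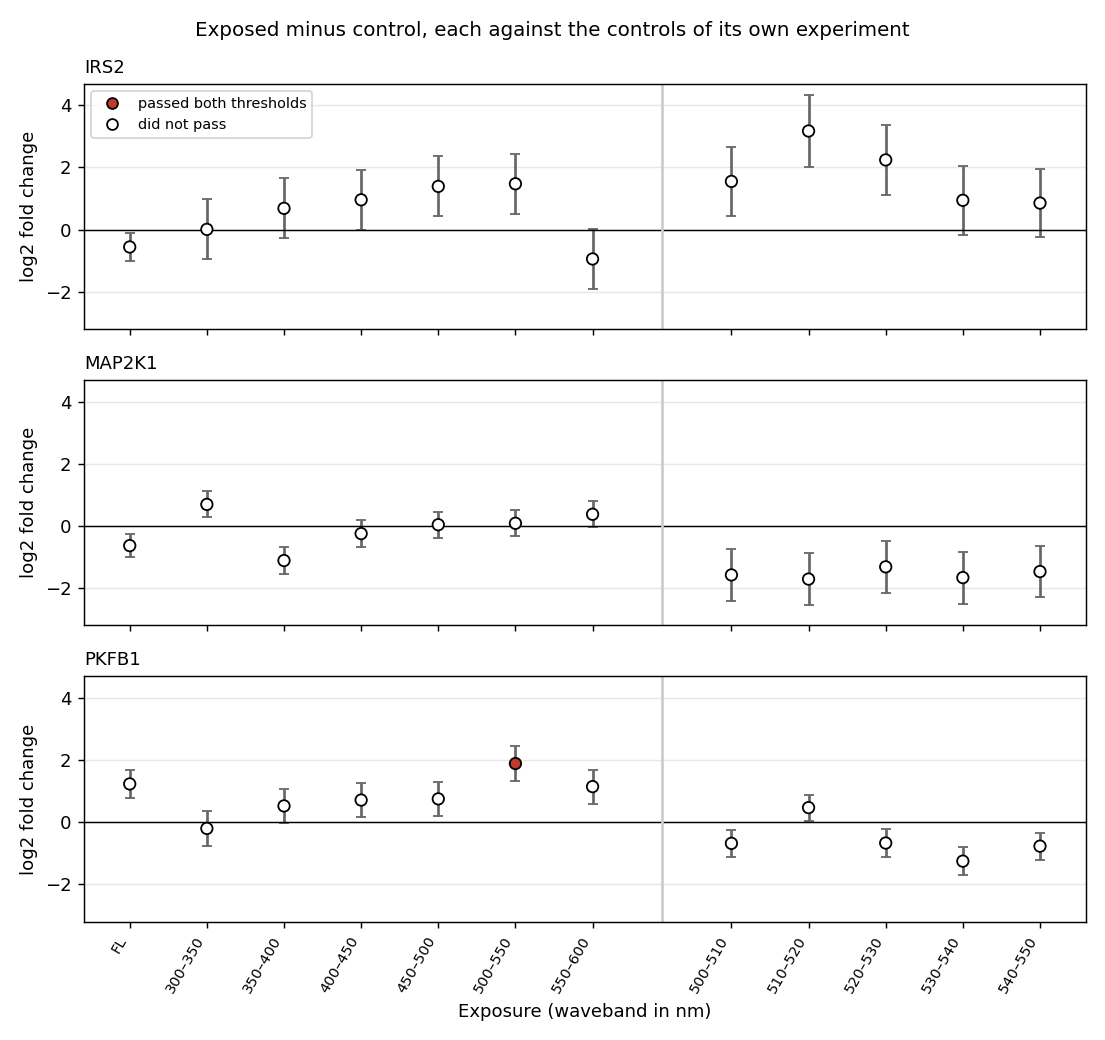
Log2 fold change (exposed minus control, vertical axis) of IRS2, MAP2K1 and PKFB1 after each of the 12 exposures, with bars of 1 SE from the quasi-likelihood fit. The 1 filled point, PKFB1 after 500–550 nm at 1.89, passed both thresholds, and the 5 points of MAP2K1 at the right lie between −1.71 and −1.32.

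The third question concerned PKFB1, the enzyme that sets fructose 2,6-bisphosphate. After 500–550 nm it had 11.8 and 13.9 CPM, against 4.33 and 2.46 CPM in controls. Both exposed fish were above every other library of the series. In the order of mean PKFB1 levels only 500–550 nm did not overlap the next group. The order was set by these same values, and the share of all transcripts with such a gap was not counted. The log2 fold change was 1.89 (SE 0.55, adjusted p = 0.0454), 3.71-fold, and 4.69% of transcripts were called in that waveband, 1.99% in the direction up.

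The adjusted p lay close to the threshold, and the call rested on few fish. Without control fish 1 the log2 fold change was 2.34 (adjusted p = 0.0942) and without control fish 2 it was 1.54 (adjusted p = 0.265). Leaving out exposed fish 1 or fish 2 gave 2.01 (adjusted p = 0.111) and 1.79 (adjusted p = 0.142), and leaving out either fish of 450–500 nm gave adjusted p = 0.0534 and 0.0520. Against all 4 controls of the series it was 1.51 (adjusted p = 0.128).

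PKFB1 was also above both controls after FL, 450–500 nm and 550–600 nm, without a call. It had 5.21 and 10.9 CPM after FL, a log2 fold change of 1.23 (SE 0.46, adjusted p = 0.270). It had 6.56 and 5.09 CPM after 450–500 nm (0.75, adjusted p = 0.398) and 5.80 and 9.20 CPM after 550–600 nm (1.15, SE 0.55, adjusted p = 0.186), against 4.33 and 2.46 CPM in controls. The exact test of edgeR called PKFB1 after 550–600 nm (1.16, adjusted p = 0.0354), with 6.4% of all transcripts. Both fish were above both controls for 27.9%, 30.3% and 30.5% of transcripts in these exposures, and by 32.8% after 500–550 nm.

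At the shorter wavelengths the fish spread around the controls. PKFB1 had 1.65 and 4.34 CPM after 300–350 nm, 2.99 and 7.07 CPM after 350–400 nm and 3.25 and 8.11 CPM after 400–450 nm, with log2 fold changes of −0.20, 0.52 and 0.71. Its SD between fish was 0.67 in the FL and 50 nm libraries, where 5.60% of transcripts had a higher SD.

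The 10 nm wavebands cover the same region as 500–550 nm, and there PKFB1 was mostly low. It had 3.02 and 4.10 CPM after 500–510 nm, 3.57 and 3.65 CPM after 520–530 nm, 2.22 and 2.59 CPM after 530–540 nm and 2.09 and 4.71 CPM after 540–550 nm, against 6.66 and 4.74 CPM in the 10 nm controls. Both fish were below both controls in these 4 wavebands, where 31.1%, 27.4%, 32.4% and 28.5% of all transcripts were also below. After 510–520 nm the fish had 5.15 and 10.8 CPM and overlapped the controls. Log2 fold changes were between −1.25 (530–540 nm, SE 0.45, adjusted p = 0.285) and 0.47 (510–520 nm), and none was called. Fitted with its controls alone, 530–540 nm was called (−1.21, adjusted p = 0.0220), as were 6.4% of all transcripts. The muscle transcript MYL2B was also below both controls in both of these fish (27.6 and 40.9 CPM, against 94.8 and 56.9 CPM in controls), and its part in the PKFB1 value was not tested.

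The response of PKFB1 to 500–550 nm light was then tested against the mean response to the 10 nm wavebands in 1 fit. The log2 fold changes were 1.92 (SE 0.55) after 500–550 nm and −0.56 (SE 0.41) over the 10 nm wavebands, a difference of 2.48 (SE 0.68, adjusted p = 0.0226). By this test 8.87% of all transcripts differed. The difference was not called without fish 1 of 500–550 nm (2.60, adjusted p = 0.0581), fish 2 of 500–550 nm (2.36, 0.0673), 50 nm control fish 2 (2.13, 0.145), 10 nm control fish 1 (2.25, 0.0873) or 10 nm control fish 2 (2.72, 0.0520). The 2 experiments used different fish and controls, and waveband width and experiment cannot be told apart.

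The same test gave −0.27 for IRS2 (SE 1.39, adjusted p = 0.915) and 1.65 for MAP2K1 (SE 0.87, adjusted p = 0.204). For MAP2K1 it was 2.12 (adjusted p = 0.0347) without fish 2 of 510–520 nm.

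Across each experiment as a whole, no transcript of these 3 showed a difference between groups by the F-test. Adjusted p was 0.401 for IRS2, 0.162 for MAP2K1 and 0.137 for PKFB1 over the 50 nm experiment, where 11.2% of transcripts passed. Over the 10 nm experiment it was 0.456, 0.547 and 0.357 in the same order of genes, and 0% passed. By edgeR's quasi-likelihood test 0 of the 3 transcripts were called after FL and 0 of the 15 comparisons in the 10 nm wavebands, where 0% of all transcripts were called, except 0.00611% at 540–550 nm. At an unadjusted p under 0.05 the counts were 1 (PKFB1) after FL, where 16.8% of all transcripts passed, and 2 in the 10 nm wavebands (IRS2 after 510–520 nm, where 28.7% passed, and PKFB1 after 530–540 nm, where 15.6% passed). DESeq2 called 0 in both sets. The exact test of edgeR called 0 after FL and 5 in the 10 nm wavebands, where it called 4.6% of all comparisons. Without FL fish 1 all 3 were called: IRS2 at −1.42 (adjusted p = 0.00301), MAP2K1 at −1.11 (adjusted p = 0.0338) and PKFB1 at 1.68 (adjusted p = 0.00850). That fit called 15.2% of all transcripts. It holds 1 exposed fish, the FL library that stood apart, and takes its spread from the 2 controls alone, so these values compare that fish with the controls and not FL with no exposure.

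IRS2 and MAP2K1 ran in opposite directions across libraries of the 10 nm experiment. Pearson's r of their log2 CPM was −0.916 over 12 libraries (2-sided permutation p = 4e-05, adjusted over 9 relations p = 0.00036), and Spearman's rho was −0.825 (permutation p = 0.00161, adjusted p = 0.0145). Without fish 1 of 510–520 nm and of 520–530 nm, the libraries farthest from the median of IRS2, r was −0.73. Between the 2 fish of a group the direction was opposite in 5 of 6 groups. The fish differed by only 0.033 in IRS2 at 540–550 nm and by 0.0052 in MAP2K1 at 500–510 nm (log2 scale). The sign says little in those groups. Fish 1 of 510–520 nm and of 520–530 nm are also the libraries that stood apart over many transcripts, and the part of this in the relation was not tested. Other panel transcripts ran against these genes as strongly in the 10 nm experiment. FOXN1 had r = −0.938 and PRKCB −0.916 with IRS2, and SYBU −0.967 and TGM8 −0.961 with MAP2K1. The share of all transcripts with r of this size was not counted. The permutations shuffled single libraries, although these are 6 groups of 2 fish.

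In the 16 libraries of FL and the 50 nm wavebands IRS2 and MAP2K1 gave r = −0.236 (permutation p = 0.379, adjusted p = 0.687) and rho = −0.176 (p = 0.511, adjusted p = 0.579). Without the 2 farthest libraries r was −0.254, and the fish of a group differed in opposite directions in 4 of 8 groups. With each set centred on its own mean, all 28 libraries gave r = −0.632 (permutation p = 0.00061, adjusted p = 0.00274) and rho = −0.524 (permutation p = 0.00544, adjusted p = 0.0245), and r = −0.549 without the 2 farthest. No relation of PKFB1 with IRS2 or MAP2K1 passed (adjusted p between 0.405 and 0.937).

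**Figure D4:**
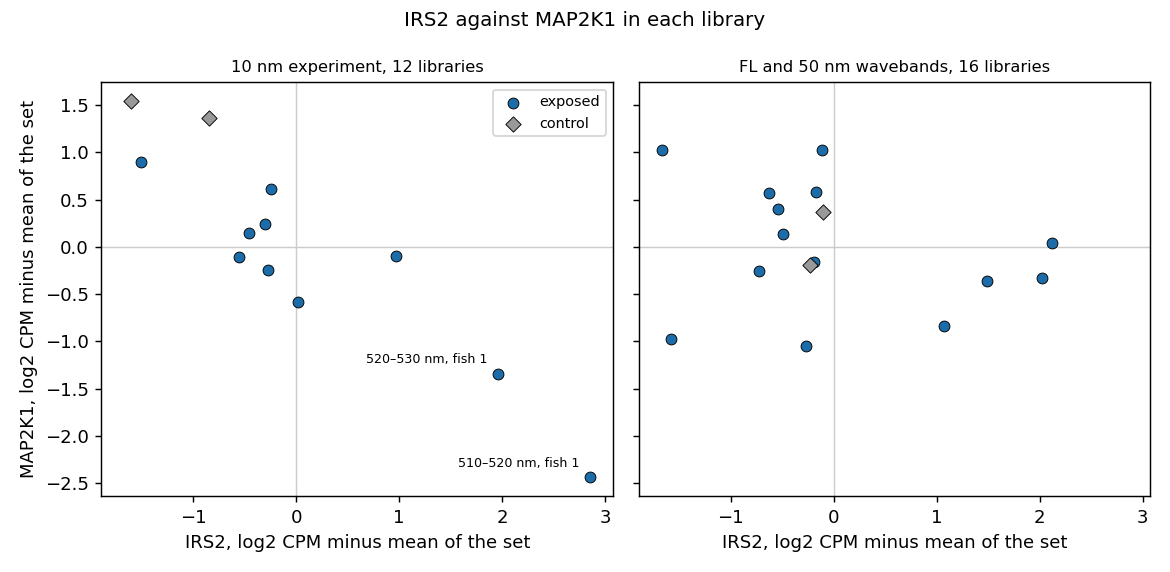
Log2 CPM of MAP2K1 (vertical axis) against IRS2 (horizontal axis) in each library, each less the mean of its set, for the 10 nm experiment (12 libraries, left) and FL with the 50 nm wavebands (16 libraries, right). Circles are exposed fish and diamonds controls. The left panel runs from the 10 nm controls at the upper left to fish 1 of 510–520 nm at the lower right (r = −0.916), and the right panel shows no such line (r = −0.236).

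The panel transcripts whose levels were most like each gene were ranked by Pearson's r over the 28 libraries, a description that shares libraries and depth and has no test. GAD45A (r = 0.803), SYBU (0.693) and HSPA4 (0.676) were most like IRS2. With IRS2, 19.9% of all transcripts had r above 0.5 in size, positive or negative. In the 10 nm experiment alone r of GAD45A, SYBU and HSPA4 was 0.969, 0.924 and 0.786. In the FL and 50 nm libraries it was 0.607, 0.385 and 0.543 in the same order. GAD45A, as the panel spells it, is taken as GADD45A, a stress-induced inhibitor of the cell cycle, and HSPA4 is a chaperone of the heat shock protein family. Among all 16871 other transcripts ENSXMAT00000014834 came first (r = 0.927). In the fish with most IRS2, fish 1 after 510–520 nm, which is the library with 4790 transcripts at least 2-fold from its controls, GAD45A had 35.8 CPM (11.4 CPM in fish 2), against 8.81 and 11.4 CPM in controls.

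Both conventional protein kinase C genes of the panel followed MAP2K1, PRKCB with r = 0.863 and PRKCA with r = 0.770, and FOXN1, a transcription factor of epithelial differentiation, came next (0.742). Of all transcripts 29.6% had r above 0.5 in size with MAP2K1, positive or negative. In the 10 nm experiment r was 0.934 for PRKCB, 0.902 for PRKCA and 0.879 for FOXN1, and in the FL and 50 nm libraries 0.691, 0.644 and 0.28. Protein kinase C acts upstream of RAF in mammalian cells. After 510–520 nm PRKCB had 4.14 and 18.5 CPM, against 34.5 and 32.8 CPM in the 10 nm controls. As with MAP2K1, fish 1, the library that stood apart, was the lower fish, and both were below both controls, as were 28% of all transcripts. The log2 fold change of PRKCB was −1.60 (SE 0.64, adjusted p = 0.149).

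KLHL38 (r = 0.747), LPIN1 (0.650) and CAMK1G (0.601) were most like PKFB1. With PKFB1, 10.4% of all transcripts had r above 0.5 in size, positive or negative. The r of KLHL38, LPIN1 and CAMK1G was 0.64, 0.581 and 0.565 in the 10 nm experiment. In the FL and 50 nm libraries it was 0.792, 0.689 and 0.631. LPIN1 is a phosphatidate phosphatase of lipid metabolism and CAMK1G a calcium-dependent kinase. After 500–550 nm KLHL38 had 20.0 and 17.4 CPM, against 0.339 and 0.201 CPM in controls (log2 fold change 6.05, SE 1.09, adjusted p = 0.00742). LPIN1 had 58.4 and 50.0 CPM there, against 17.4 and 17.8 CPM in controls, and did not pass (1.59, SE 0.54, adjusted p = 0.0741). Both fish were above both controls for these 2 transcripts, as for 32.8% of all transcripts in that waveband. KLHL38 had only 8 and 5 counts in those controls, so its fold change rests on a low control level. Against the same controls it was also called after 550–600 nm (4.47, SE 1.08, adjusted p = 0.0228), at 1.10 and 10.8 CPM. After FL and the other 50 nm wavebands its log2 fold change was 2.78 (350–400 nm) to 4.59 (FL), without a call. A rise of KLHL38 was thus not particular to 500–550 nm. It had 2.87 and 4.74 CPM in the 10 nm controls. Its log2 fold change in the 10 nm wavebands ran from −1.76 (530–540 nm) to 1.075 (510–520 nm), none called. Only 510–520 nm was above 0.

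MYL2B, a panel transcript of a striated muscle myosin light chain, was looked at after the values of PKFB1 were seen. Whether other panel transcripts are expressed in muscle was not examined. The r of MYL2B with PKFB1 was 0.584 over the 28 libraries, 0.514 in FL and 50 nm libraries and 0.713 in the 10 nm experiment. Over the 28 libraries it was −0.0172 with IRS2 and −0.00856 with MAP2K1. For MAP2K1 it was −0.292 in FL and 50 nm libraries and 0.201 in the 10 nm experiment. After 500–550 nm MYL2B had 118 and 88.3 CPM, against 101 and 64.9 CPM in controls, which overlapped (log2 fold change 0.28, SE 0.44, adjusted p = 0.707). After 530–540 nm, where PKFB1 was lowest, MYL2B had 27.6 and 40.9 CPM, against 94.8 and 56.9 CPM in controls, so that both fish were below both controls, as were 32.4% of all transcripts (−1.17, SE 0.50, adjusted p = 0.311). The fish of a group with more PKFB1 also had more MYL2B in 9 of the 14 groups, among them FL (181 CPM in fish 2 and 41 CPM in fish 1), 510–520 nm (102 CPM in fish 2 and 58.6 CPM in fish 1) and 540–550 nm (117 CPM in fish 2 and 41.9 CPM in fish 1). The 500–550 nm fish were among the 5 groups where it did not. The same count was 5 of 14 for IRS2 and 6 of 14 for MAP2K1. In the 10 nm experiment it was 5 of 6 for MAP2K1 and 4 of 6 for PKFB1. The share of all transcripts with such counts was not examined. The part of muscle in the PKFB1 levels was not tested.

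Around these genes, a list of 14 panel transcripts of growth factor, calcium, stress and energy signalling was counted in each exposure, all of them tested. After 350–400 nm 1 was called up and 1 down, where 3.27% of all transcripts were called. GNA15, a G protein alpha subunit that activates phospholipase C, rose to 37.0 and 23.3 CPM, against 8.15 and 5.28 CPM in controls (2.13, SE 0.40, adjusted p = 0.0144). CDKN1A, the p21 inhibitor of the cell cycle, fell to 3.49 and 2.38 CPM, against 5.86 and 11.4 CPM in controls (−1.59, SE 0.41, adjusted p = 0.0380).

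After 500–550 nm, the waveband with the PKFB1 call, 1 of the 14 was called up and 1 down, where 4.69% of all transcripts were called. CREB5, a transcription factor of the CREB family, rose to 8.83 and 6.95 CPM, against 1.82 and 3.18 CPM in controls (1.61, SE 0.47, adjusted p = 0.0437). CDKN1A fell to 2.46 and 4.41 CPM, against 5.86 and 11.4 CPM in controls (−1.36, SE 0.40, adjusted p = 0.0481). Its log2 fold change was positive in each of the 10 nm wavebands of the same region, between 0.55 and 1.565, none called. The 10 nm controls had 3.0 and 3.1 CPM of CDKN1A, between the exposed fish of 500–550 nm. The part of the control level in the CDKN1A values was not tested. After 550–600 nm, where 4.42% of transcripts were called, GNA15 alone was called, at 11.6 and 27.6 CPM, against 8.15 and 5.28 CPM in controls (1.55, SE 0.40, adjusted p = 0.0287). The log2 fold change of GNA15 was positive in all 12 exposures, from 0.63 (500–550 nm) to 2.37 (510–520 nm). That of CREB5 was also positive in all 12, from 0.82 (400–450 nm) to 2.08 (510–520 nm). A positive value of these 2 was thus not particular to the wavebands with a call. The exposures share controls, and the share of all transcripts positive in all 12 was not counted. After 510–520 nm GNA15 had 61.5 CPM in fish 1, the library that stood apart, and 8.71 CPM in fish 2. CREB5 had 9.07 and 4.94 CPM there. After 520–530 nm fish 2 had 1.54 CPM of CREB5, below both 10 nm controls (1.57 and 1.69 CPM). Its GNA15, at 7.21 CPM, lay between those controls (7.64 and 5.94 CPM).

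In the other 9 exposures 0 of the 14 were called by edgeR. The median log2 fold change of the list lay between −0.43 (FL) and 0.66 (500–510 nm), while that of all transcripts lay between −0.03 and 0.01.

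The table also names 7 coding sequences of these pathways directly, a set gathered after the names in the table were seen. The rows of PRKCE and LDHB carry the label 1of2 and that of MAPK14 the label 2of2, so each is 1 of 2 copies. MAPK11 was too low to be tested in any fit, IGF1 in those of FL and the 10 nm wavebands, and PRKCE in that of the 10 nm wavebands. This copy of PRKCE, a calcium-independent protein kinase C, fell to 0.353 and 0.682 CPM after 300–350 nm (−2.37, SE 0.50, adjusted p = 0.0387). After 400–450 nm it fell to 0.651 and 0.360 CPM (−2.41, SE 0.50, adjusted p = 0.0263), against 1.91 and 3.38 CPM in the 50 nm controls. The background of calls was 0.975% and 2.06% in those wavebands. These levels are low, and the 10 nm controls, at 0.196 and 0.130 CPM, were below these exposed fish. The log2 fold change of PRKCE was also negative after FL and the other 50 nm wavebands, which share the 50 nm controls. It lay between −1.47 (450–500 nm, adjusted p = 0.0725) and −0.50 (FL), without a call. The part of the control level in the PRKCE values was not tested. The stress kinases MAPK9 and MAPK14 were not called in any exposure. LDHB, a subunit of the lactate dehydrogenase that works at the end of glycolysis, had 394 and 313 CPM after 500–550 nm and 370 and 343 CPM after 550–600 nm, against 255 and 219 CPM in controls. Its adjusted p passed in both (0.0317 and 0.0268), and its log2 fold changes of 0.55 (SE 0.14) and 0.58 (SE 0.14) were under the size needed for a call. Its log2 fold change lay between 0.24 and 0.41 in the other 50 nm wavebands and FL and between −0.37 and −0.10 in the 10 nm wavebands, with no adjusted p under 0.05.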

How the data were processed

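Skin RNA of individual fish was sequenced as 125 bp paired reads from TruSeq mRNA libraries. After trimming and filtering, the authors used GSNAP, which the submitters' processing notes also name, to align reads to Ensembl cDNA sequences of *Xiphophorus*. They quantified transcripts with a tool their methods spell xEpress, and the deposited values are whole-number counts that were not normalized. How reads that map to several transcripts were treated is not given in the sources used here.

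Groups, doses and replicate numbers came from the labels. Of 32 deposited columns 28 were distinct, and identical columns were counted 1 time. The plan assumed that FL had controls of its own. FL with its controls, the 50 nm libraries and the 10 nm libraries were fitted separately with edgeR 4.0.16 in R 4.3.3 (filterByExpr, TMM, glmQLFit and glmQLFTest), with 16513, 16722 and 16366 transcripts tested, and the differences between experiments in a fit of all 28 libraries (16872 transcripts). Adjustment was over all transcripts tested. SE was obtained from each log2 fold change and its F statistic (absolute change over the root of F). Log2 CPM of single libraries used a prior count of 2 and TMM factors over all 28. Correlations were tested with 100000 permutations, 2-sided, which shuffled single libraries within a set and did not keep the fish of a group together. Replicates were separate fish, 2 per group, so p-values rest on few degrees of freedom and measure the spread between these fish.

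The 3 transcripts and the lists of 14 pathway and 10 housekeeping transcripts were chosen with earlier results of these data known. The genes named by rule were the 3 transcripts, those of the 14 called in most exposures, and for each of the 3 the panel transcripts most like it. KLHL38, LPIN1 and PRKCB values, MYL2B and the named coding sequences were chosen after values or names were seen. The panel targets used here are 63 identifiers, all found in the table. The paper describes a larger panel, so rankings among panel transcripts cover these 63 only. They were read from a page image and respelled to the Ensembl form. No sequence or coordinate is given, since the supplied gene table holds no Ensembl identifiers.

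Alternatives were the edgeR exact test, DESeq2 1.42.0, each exposure with its controls alone (for FL, with the 50 nm libraries), no filter, RLE or housekeeper size factors, a replicate block, all 4 controls and each fish left out. A fit of all libraries, the crossed FL block, the mean of the 10 nm wavebands and fish left out of the comparisons between experiments were added after results were known. The fits were also run on simulated data, drawn with the spread typical of a transcript's level and with no library that stood apart. That run does not bear on transcripts as variable as IRS2. Figures were drawn with matplotlib 3.10.9. NanoString data were not analysed here.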

Additional observations from a re-analysis of the deposited data

Results flagged for a closer look

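The response of PKFB1 to 500–550 nm light and its mean response to the 10 nm wavebands of the same region differed by 2.48 on the log2 scale (SE 0.68, edgeR quasi-likelihood adjusted p = 0.0226), as the test of the difference itself showed. PKFB1 had 11.8 and 13.9 CPM after 500–550 nm, against 4.33 and 2.46 CPM in the 50 nm controls, while the fish of the 10 nm wavebands had 2.09 to 10.8 CPM, against 6.66 and 4.74 CPM in the 10 nm controls. No cause of the difference was tested.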

How the results depend on the processing

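The 1 call after a single exposure, PKFB1 after 500–550 nm, was kept with no filter, RLE or housekeeper size factors, the replicate block (1.82, adjusted p = 0.0377), DESeq2, the exact test, the 2 groups alone and 1 fit of all libraries (adjusted p between 2.1e-07 and 0.0446), and lost against all 4 controls (1.51). Its range with each fish left out was 1.54 to 2.34. By the exact test the number of calls was 3 in the 50 nm and 5 in the 10 nm wavebands. That test called 7.18% of all transcripts after 350–400 nm, 6.4% after 550–600 nm and 4.6% of comparisons in the 10 nm wavebands. With 2 groups alone the number was 2 and 4. Those fits called 4.8% after 350–400 nm, and 4.43%, 6.4% and 3.26% after 500–510, 530–540 and 540–550 nm. Against all 4 controls the number was 0 in the 50 nm wavebands. With single fish left out it changed in every set, but those fits hold 1 fish in a group and their counts are not compared here. The MAP2K1 difference between controls was lost with housekeeper factors (1.88) and with the replicate block (2.04), and ranged from 1.76 to 2.34 with each control left out. The housekeepers include a transcript that was itself called in 7 exposures.

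Directions turned round for values that were not called. With housekeeper factors these were IRS2 after 300–350 nm (−0.12) and MAP2K1 after 450–500 nm (−0.042) and 500–550 nm (−0.20), and with the replicate block MAP2K1 after 450–500 nm (−0.037). Against all 4 controls they were MAP2K1 after 300–350 nm (−0.62), 450–500 nm (−1.26), 500–550 nm (−1.21) and 550–600 nm (−0.94). With each fish left out, IRS2 ranged from −0.064 to 0.081 after 300–350 nm, −0.13 to 1.23 after 350–400 nm, −0.37 to 1.64 after 400–450 nm, −0.48 to 2.18 after 450–500 nm, −0.40 to 2.29 after 500–550 nm and −0.38 to 3.12 after 520–530 nm. MAP2K1 ranged from −0.51 to 0.078 after 400–450 nm, −0.47 to 0.45 after 450–500 nm, −0.18 to 0.41 after 500–550 nm and −0.40 to 0.92 after 550–600 nm. PKFB1 ranged from −1.05 to 0.34 after 300–350 nm, −0.20 to 1.03 after 350–400 nm, −0.10 to 1.24 after 400–450 nm and −0.14 to 0.90 after 510–520 nm. The 500–550 nm response minus the mean 10 nm response ranged from −2.14 to 0.52 for IRS2, 1.39 to 2.12 for MAP2K1 and 2.13 to 2.94 for PKFB1, and the mean of the 10 nm wavebands from −2.01 to −1.38 for MAP2K1. The cause of these shifts was not tested.

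The difference of fish 1 and fish 2 after an exposure correlated with that of the controls at −0.236 (FL) to 0.0855. This compares exposed fish with controls only and cannot show a difference shared among exposed fish of the same number. After each 10 nm waveband, more transcripts lay at least 2-fold from the control mean in fish 1 than in fish 2. By rising wavelength these were 1475, 4790, 3511, 2077 and 1729, against 1214, 941, 907, 1124 and 859. IRS2 was also higher in fish 1 each time, by 0.033 to 3.48 on the log2 scale. In the other exposures the direction varied for both. The crossed FL block called 0 of the 3 transcripts, and 107 up and 251 down in all. No F-test changed side. With 2 fish per group and SE of 0.83 to 1.17 for IRS2 and MAP2K1 in the 10 nm wavebands, differences of 2-fold were not detectable for these genes there.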

Other observations

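Between the 2 fish of a group, IRS2 and PKFB1 differed in opposite directions in 6 of 6 groups of the 10 nm experiment and in 6 of 8 groups of FL and the 50 nm wavebands, a count made after the values were seen and not tested. At 540–550 nm the fish differed by only 0.03 in IRS2 on the log2 scale and at 520–530 nm by −0.03 in PKFB1 (fish 1 minus fish 2), so the sign says little in those groups of the 10 nm experiment. Over libraries their correlation was −0.0805 in the 10 nm experiment (permutation p = 0.801, adjusted p = 0.937) and −0.0244 in FL and the 50 nm wavebands (permutation p = 0.928, adjusted p = 0.937).

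The panel transcripts that ran most against these genes were FOXN1 for IRS2 (r = −0.756 over 28 libraries), TGM8 for MAP2K1 (−0.854) and CDKN1A for PKFB1 (−0.604). They were added after the values were seen and are a description with no test. TGM8, as the panel names it, belongs to the transglutaminases, enzymes that cross-link proteins.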
